A study of Mus musculus with 18 samples.

Results

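The 9 genes described here encode the core factors of non-homologous end joining, the repair of DNA double-strand breaks by direct ligation of the broken ends. They are Xrcc5, Xrcc6, Prkdc, Dclre1c, Poll, Polm, Xrcc4, Lig4 and Nhej1. Members were the probes whose transcript maps in RefSeq to 1 of these symbols, and all 9 genes were found, with 11 probes, among 19259 named genes and 37246 probes. Dclre1c has 3 probes and each of the other genes has 1.

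Expression was measured in bulk cultures of mouse cells, in 6 groups of 3 samples, with 1 sample on each of 18 Agilent one-color arrays. ES cells are primary embryonic stem cells from blastocysts, grown with leukemia inhibitory factor and without feeder cells, and ED cells are isogenic cells that differentiated without direction after that factor was withdrawn. Neither ES nor ED was irradiated. ESRE and EDRE are ES and ED cells collected 15 min after 10 Gy of ionizing radiation (IR), and ESRL and EDRL are the same cells collected 4 h after it. The labels number the replicates but do not state separate cultures, so that p-values measure only the spread between these samples, which may be technical.

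In end joining, the Ku heterodimer binds the broken end and recruits a kinase, and a nuclease and polymerases then make the ends fit for ligation by a dedicated ligase complex. The pathway needs no sister chromatid and can act outside S phase. Lymphocytes also use it to join the breaks of antigen receptor rearrangement.

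Values are log2 signals with the array's own 75th percentile subtracted, where 0 is the brightness of that percentile. They compare arrays for 1 probe and, apart from the summed signals of the markers, are not compared between probes. A change was called where limma, fitted to all 18 arrays, gave a Benjamini-Hochberg adjusted p under 0.05 over all probes tested in the comparison. The number of arrays limits the precision. Replicates 2 and 3 of EDRE were dim, with 75th percentiles of 875 and 1155, where the 16 others had 1952 to 4268. The scanner software marked 24.4% and 23.8% of their spots as outliers, and 3.33% to 11.1% elsewhere. Replicate 1 of ESRL was scanned on another day and scanner. A shared scan time was read as a shared slide, which is an inference. The ES arrays were alone on theirs and the 3 ED arrays shared 1 with replicate 3 of ESRE, so that cell type and slide cannot be told apart in ED against ES. No irradiated group shared a slide with the unirradiated cells of its type, so IR and slide cannot be told apart either.

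The markers followed the labels of the cells. In ED against ES, 51.9% of all probes were called in either direction. Of 9 ES cell markers tested, 8 were lower in ED than in ES, Pou5f1 by −10.29 and Nanog by −8.85, and 1, Klf4, was not called, at 0.05. Nanog and Tdgf1, both among the 8, each had 1 usable ES array, with the spread taken from the other groups. The summed signal of the 10 listed genes, on the linear scale with the 75th percentile as 1, was 583 to 593 in ES, where Dppa5a had the brightest probe, and 17.5 to 23.1 in ED, where Klf4 was. Of 9 mesenchymal markers, 8 were higher in ED, Col1a1 by 5.55, and Thy1 was at least 400-fold lower, since it was not well above background on any ED array. Their summed signal was 31.6 to 33.5 in ES and 416 to 532 in ED, with the Vim probe brightest in both. Of the other lineages, 2 of 2 endoderm, 3 of 3 mesoderm and 1 of 3 neuroectoderm markers tested were lower in ED. The other 2 neuroectoderm genes were not called, and the median change of that list was 0.55. Its summed signal was 2.85 to 3.22 in ES and 3.68 to 4.89 in ED, with the Nes probe brightest in both. The part of the markers in the results was not tested. For the IR label, p53 target genes were taken: 4 of 8 tested rose in ESRL and 6 of 9 in EDRL, Mdm2 by 0.87 and 1.39, while 2 of 9 rose in EDRE and 0 of 8 in ESRE. In the same order, 8.89%, 2.39%, 7.42% and 0.649% of all probes were called in either direction. With slide as a random block the p53 counts were 0 in ESRL, 1 in EDRL (Trp53inp1) and 0 in EDRE, beside 0%, 0.137% and 0.00407% of all probes. The counts of the ES cell and mesenchymal markers higher or lower in ED were 8 and 7, beside 21.2% of all probes. Those of the endoderm, mesoderm and neuroectoderm markers lower in ED were then 1 (Sox17), 2 (Kdr and Mixl1) and 0.

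Between the unirradiated cells, the end joining genes did not move together under the scaling used here. Xrcc5, Prkdc and Poll were lower in ED than in ES and Xrcc4 was higher, which makes 4 of the 7 members tested, beside 51.9% of all probes called in this comparison. The members' share is thus close to the background. Their median change was −0.29 and that of all probes tested was −0.19. The directions of the calls depended on the scaling. With each array set to its median, the 3 members called were all higher in ED (Xrcc4, Dclre1c at 1.61 and Polm at 1.29), and so were the 4 called in the authors' matrix (Xrcc4, Nhej1, Dclre1c and Polm). Beside these counts, 56.2% and 55.2% of all probes were called. Of all probes called, 38.1% were higher in ED, but 62.8% with each array set to its median and 52.7% with quantile normalization. The median of all probes depended on the scaling as well, at 0.46 with each array set to its median, 0.22 with quantile normalization and −0.29 with the 75th percentile of probes above background on all arrays. In bulk samples, fewer cells with a transcript and less of it per cell cannot be told apart.

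**Figure D1:**
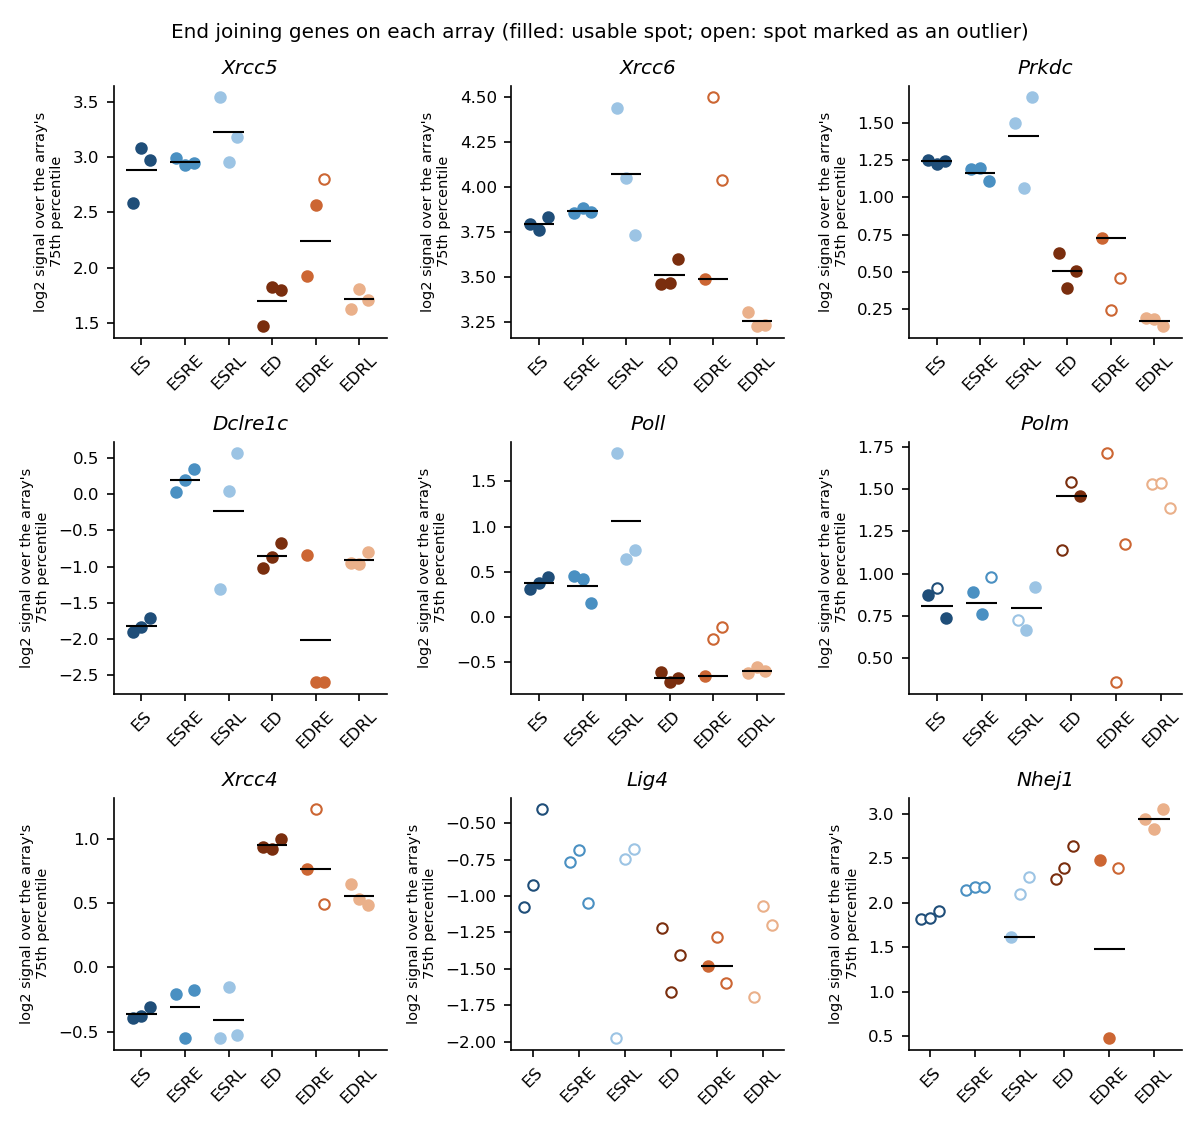
Log2 signal over the array's 75th percentile (vertical axis) for each of the 9 genes in the 6 groups, with 1 point per array, open where the spot was marked as an outlier, and a bar at the mean of the usable spots. Xrcc4 lies between −0.39 and −0.31 in ES and between 0.92 and 1.01 in ED, while Lig4 has a usable spot on 1 array.

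The Ku subunits bind the broken end first. Xrcc5, which encodes the larger subunit Ku80 (chromosome 1, 72307417 to 72394953, build GRCm38.p6), was at 2.58, 3.09 and 2.97 in ES and at 1.47, 1.82 and 1.80 in ED. All 3 ED arrays lay below all 3 ES arrays. The change was −1.19 (SE 0.21, 95% interval −1.63 to −0.74, limma adjusted p = 0.000237), or 2.28-fold lower. Xrcc6, which encodes the partner subunit Ku70, was at 3.79, 3.76 and 3.84 in ES and at 3.46, 3.47 and 3.60 in ED. Its groups did not overlap either, but the change of −0.29 was not called (95% interval −0.65 to 0.07, limma adjusted p = 0.170), and it lay −0.10 from the median of all probes. Its sign changed in 2 of 36 alternatives, which is given with the scalings below. Of these 36, 18 left out 1 array. Where that array was irradiated, the change in ED against ES could not move, only its p. The share of all probes whose ES and ED arrays do not overlap is not given here, while 51.9% of all probes were called. A lack of overlap, for the Ku subunits and the members below, is thus not shown to be particular to these genes.

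Prkdc encodes the catalytic subunit of the DNA-dependent protein kinase, which Ku recruits (chromosome 16, 15637444 to 15842239). It was at 1.25, 1.22 and 1.25 in ES and at 0.63, 0.39 and 0.50 in ED, with no overlap. The change was −0.73 (SE 0.16, 95% interval −1.08 to −0.39, limma adjusted p = 0.00167), or −0.55 relative to the median of all probes. Poll, an X-family polymerase that fills gaps at the ends (chromosome 19, 45552275 to 45560564), was at 0.31, 0.37 and 0.44 in ES and at −0.61, −0.72 and −0.68 in ED. Again the groups did not overlap, and the change was −1.04 (SE 0.25, 95% interval −1.58 to −0.50, limma adjusted p = 0.00325). Polm encodes the related polymerase mu and had usable spots on 7 arrays. Its change of 0.65 rests on 1 ED array, with its spread taken from the other groups, and was not called (95% interval −0.06 to 1.37, limma adjusted p = 0.113).

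Xrcc4, the scaffold that holds DNA ligase IV (chromosome 13, 89848914 to 90089608), was the member called as higher. It was at −0.39, −0.38 and −0.31 in ES and at 0.94, 0.92 and 1.01 in ED. The ED arrays all lay above the ES arrays, and the change was 1.32 (SE 0.15, 95% interval 0.98 to 1.65, limma adjusted p = 9.96e-06), or 2.49-fold, and 1.50 relative to the median of all probes. The brightest Dclre1c probe was at −1.90, −1.83 and −1.71 in ES and at −1.02, −0.87 and −0.67 in ED, also without overlap. Its change of 0.96 was not called (95% interval 0.00 to 1.92, limma adjusted p = 0.0883), though it was in 13 of 36 alternatives. The 2 remaining ligation genes could not be tested between ES and ED. Lig4, the ligase itself, had a usable spot on 1 array, and Nhej1, which encodes the XLF factor that bridges the ends with Xrcc4, on 6. With outlier spots kept, Lig4 was −0.63 (95% interval −1.29 to 0.03) and Nhej1 0.58 (95% interval −0.24 to 1.40) in ED against ES, with limma adjusted p of 0.107 and 0.236, and the 4 calls were Xrcc5, Prkdc, Poll and Xrcc4 as before. In the values of the authors' matrix, Nhej1 was 1.23, with a limma adjusted p of 0.0171.

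**Figure D2:**
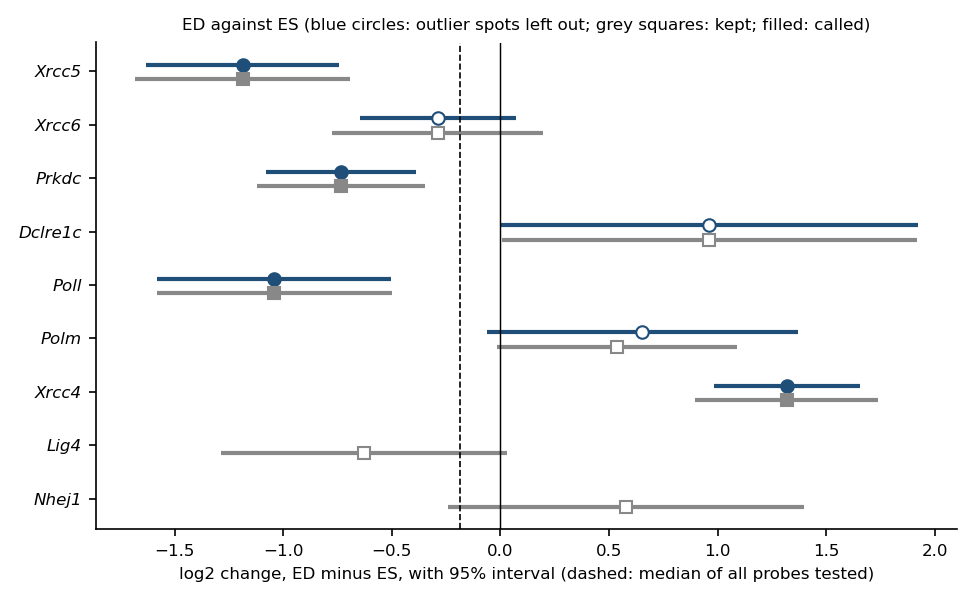
Log2 change in ED against ES with its 95% interval (horizontal axis) for each gene, with outlier spots left out (blue circles) or kept (grey squares), filled where called, and a dashed line at the median of all probes, −0.19. Xrcc5, Poll and Prkdc lie below 0 and Xrcc4 above it with intervals that exclude 0 in both, while Lig4 and Nhej1 have values only with outlier spots kept.

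These 4 calls were lost when slide entered the fit as a random block, with a consensus correlation of 0.81. The changes were then 1.17 for Xrcc4 (limma adjusted p = 0.0622), −1.08 for Xrcc5 (0.153 as adjusted p), −0.66 for Prkdc (0.388 as adjusted p) and −0.65 for Poll (0.390 as adjusted p). Of all 28677 probes tested, 6069 (21.2%) were called. Within the slide that held the ED arrays and replicate 3 of ESRE, an irradiated array, ED was −1.26 for Xrcc5, −0.60 for Prkdc, −0.83 for Poll, −0.35 for Xrcc6, −1.21 for Dclre1c and 1.13 for Xrcc4, as differences with no test. For Dclre1c this sign is opposite to that in ED against ES, and the ESRE array had the highest value of its group. With each array set to its median, Xrcc4 was called at 1.96, and Xrcc5 at −0.54, Prkdc at −0.09 and Poll at −0.40 were not (limma adjusted p of 0.0728, 0.731 and 0.298), while Xrcc6 was 0.35.

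The promoters of the members were read as the 250 bases before a start listed in the promoter table from RefSeq (build GRCm38.p6). Of the members, 7 matched, with 8 windows of 32851, and Prkdc and Poll had no entry. The listed start can differ from that of the gene span. The windows of Xrcc5 and Dclre1c end inside the spans given for these genes, and those of Xrcc6 and Polm and 1 of 2 for Lig4 lie wholly inside. The motifs, and the 3 promoters printed, were chosen after the values were seen: Xrcc5 fell and Xrcc4 rose in ED, and Dclre1c was called after IR. Capitals mark matches on either strand to CCAAT (the CCAAT box, in 33.9% of all promoters), GGGCGG (the GC box, 32.7%) and CCGGAAG (an ETS core, 6.91%). The windows are chr1:72307171-72307420 on the plus strand for Xrcc5, chr13:90089609-90089858 on the minus strand for Xrcc4 and chr2:3423881-3424130 on the plus strand for Dclre1c, each written 5′ to 3′ on the strand of its gene.
Xrcc5: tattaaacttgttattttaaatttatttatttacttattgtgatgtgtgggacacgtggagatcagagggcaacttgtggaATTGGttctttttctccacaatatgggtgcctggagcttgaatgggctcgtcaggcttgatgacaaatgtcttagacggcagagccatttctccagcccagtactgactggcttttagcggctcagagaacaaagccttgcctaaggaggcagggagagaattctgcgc
Xrcc4: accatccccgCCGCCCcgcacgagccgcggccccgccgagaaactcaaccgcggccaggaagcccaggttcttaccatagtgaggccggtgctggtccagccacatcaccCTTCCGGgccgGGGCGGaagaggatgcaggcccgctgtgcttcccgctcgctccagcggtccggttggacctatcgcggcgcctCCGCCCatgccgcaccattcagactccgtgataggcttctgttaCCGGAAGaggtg
Dclre1c: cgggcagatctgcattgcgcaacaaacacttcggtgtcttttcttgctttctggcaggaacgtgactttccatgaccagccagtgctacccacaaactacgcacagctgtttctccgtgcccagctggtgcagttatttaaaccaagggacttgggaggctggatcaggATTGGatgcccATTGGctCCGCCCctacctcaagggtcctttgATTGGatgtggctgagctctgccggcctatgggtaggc

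Xrcc5 holds 1 CCAAT box and 5 CG pairs, with 44.8% G or C, while Xrcc4 holds 3 GC boxes, 2 ETS cores and 26 CG pairs, with 68.0%. The Dclre1c window lies between them, at 54.8% with 8 CG pairs, and holds 3 CCAAT boxes and 1 GC box. The median of all promoters was 52.4% and 6 CG pairs. Among the 8 windows, 6 held a GC box, 3 a CCAAT box, 3 an ETS core, 2 an NRF1 motif (3.74% of all promoters), 1 TTTNNCGC (E2F, 4.28%), and 0 held TATAAA (the TATA box, 12.4%) or TGACGT (the core of the cyclic AMP response element, 6.47%). A match describes the letters of these windows and says nothing of binding.

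At 15 min after IR in ES cells, limma called 0 of 7 members, beside 0.649% of all probes. At an unadjusted p under 0.05 there was 1, beside 9.5% of all probes. The t-test of the methods gave 2 unadjusted, beside 23.5%, and 1 adjusted, beside 1.98%. That 1 was Dclre1c, which encodes Artemis, the nuclease that opens hairpins and trims ends once the kinase has activated it (chromosome 2, 3424061 to 3474211). Its brightest probe was at −1.90, −1.83 and −1.71 in ES and at 0.04, 0.19 and 0.35 in ESRE. All ESRE arrays lay above all ES arrays, with a change of 2.01 (SE 0.45, 95% interval 1.05 to 2.97, limma adjusted p = 0.0604). Without replicate 1 or 3 of ESRL, or replicate 1 or 2 of EDRE, it was called, and over the 18 fits that left 1 array out limma adjusted p was 0.00868 to 0.238. The other 6 members tested lay between −0.07 and 0.08, with intervals reaching from −0.57 to 0.60, and the median of all probes was −0.07. Replicate 3 of ESRE was on another slide than replicates 1 and 2 and had the highest value.

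At 4 h in ES cells, 1 of 7 members was called, beside 8.89% of all probes, a share near the background. Dclre1c was at −1.31, 0.05 and 0.56 in ESRL, above all ES arrays, and had risen by 1.58 (SE 0.45, 95% interval 0.62 to 2.54, limma adjusted p = 0.0414). The low value is that of the array scanned on another day. The call depended on single arrays: it was lost in 14 of 18 fits that left 1 array out, which were each fit without an ES, ESRE, ED or EDRL array and those without replicate 2 or 3 of ESRL, with adjusted p from 0.00790 to 0.149 over the 18. It was also lost with slide as a random block, at 1.61, where 0 of all probes were called. Of the markers, 2 of 2 endoderm genes, Gata4 (−1.07) and Sox17 (−1.18), were called as lower in ESRL, and 0 of the ES cell and mesenchymal markers were called. The summed signal of the endoderm list was 2.66 to 2.80 in ES and 0.891 to 1.41 in ESRL. The part of these in the result was not tested. Poll was at 1.81, 0.64 and 0.74 in ESRL, with a change of 0.69 that was not called (95% interval 0.15 to 1.23, limma adjusted p = 0.106). The high value is that of the array of another day, and without that array, replicate 1 of ESRL, the change was 0.32. Without replicate 2 of ESRL it was called, at 0.90. The remaining members lay between −0.05 and 0.35, where the median of all probes was −0.16. Between the times, in ESRL against ESRE, limma called 0 of 7 members beside 5.99% of all probes, with 1 at an unadjusted p under 0.05 (Poll, 0.72), beside 21.3%, and 0 by the unadjusted t-test of the methods, beside 13.1%. On the slide that held 2 arrays of each, Poll differed by 0.25 and Dclre1c by 0.19.

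**Figure D3:**
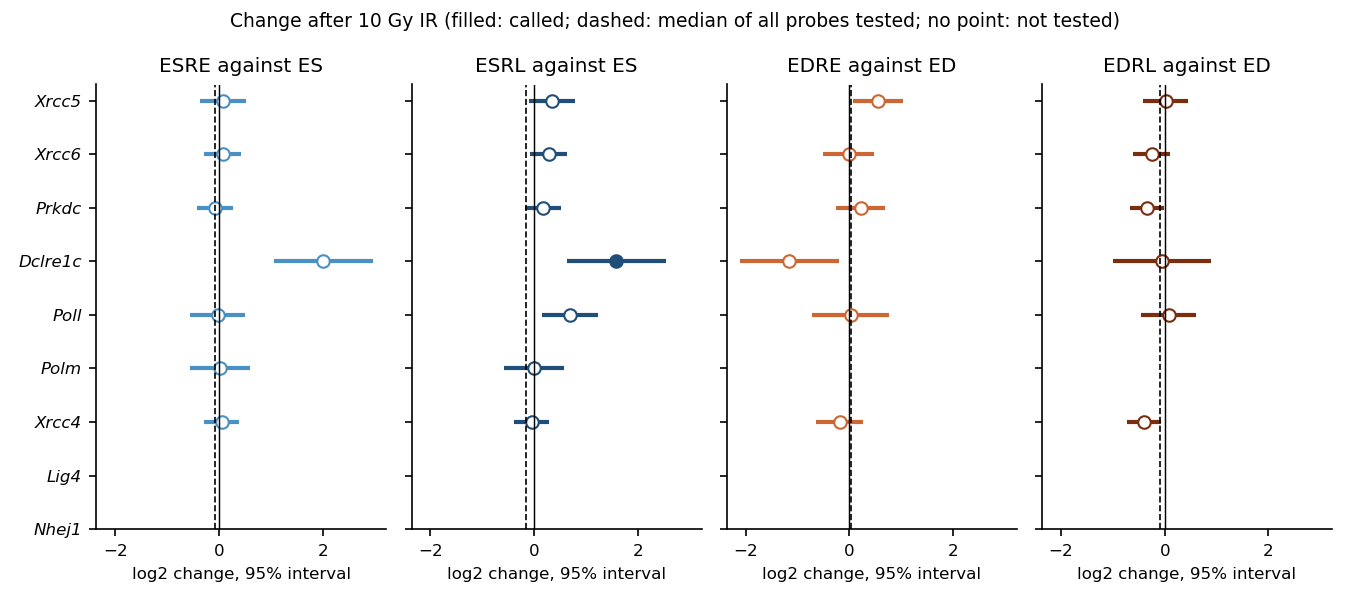
Log2 change with its 95% interval (horizontal axis) for each gene in 4 comparisons of irradiated with unirradiated cells, filled where called, with a dashed line at the median of all probes tested and no point for genes not tested. Dclre1c is at 2.01 (ESRE), 1.58 (ESRL), −1.16 (EDRE) and −0.05 (EDRL), and only the ESRL value is called.

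In ED cells at 15 min, limma called 0 of 6 members, beside 7.42% of all probes, with 2 at an unadjusted p under 0.05 (Dclre1c and Xrcc5), beside 26.1%, and 0 by the unadjusted t-test of the methods, beside 11.5%. Dclre1c was at −1.02, −0.87 and −0.67 in ED and at −0.85, −2.60 and −2.59 in EDRE. The low values are those of both dim arrays, and the bright array lay among the ED arrays. The change of −1.16 was not called (95% interval −2.11 to −0.21, limma adjusted p = 0.112). Over the fits that left 1 array out, the Dclre1c change ranged from −1.74 to −0.87. It was called in 2 of 18, those without replicate 1 of EDRE, the bright array, or replicate 1 of ESRL. Xrcc5 was at 1.92 and 2.56 on the usable EDRE arrays, with a change of 0.55 (95% interval 0.06 to 1.03, limma adjusted p = 0.140). The higher value is that of replicate 2, a dim array. In fits that left 1 array out the change was 0.23 to 0.87, lowest without replicate 2 of EDRE and highest, and called, without replicate 1 of EDRE. Xrcc6, Prkdc, Poll and Xrcc4 rest on the bright array alone in EDRE and lay between −0.19 and 0.22. Of the markers, 2 of 8 ES cell genes, Pou5f1 (−1.68) and Esrrb (−0.99), and 1 of 4 endoderm genes, Sox17 (−1.44), were called as lower in EDRE. With slide as a random block, 0 genes of either list were called, beside 0.00407% of all probes. Pou5f1 and Sox17 were each well above background on 1 of the 3 EDRE arrays. The summed signal of the ES cell list was 20.2 to 32.6 in EDRE, with the Klf4 probe brightest.

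At 4 h in ED cells, limma called 0 of 6 members, beside 2.39% of all probes, with 2 at an unadjusted p under 0.05 (Xrcc4 and Prkdc), beside 13.9%. The t-test of the methods gave 3 unadjusted, Prkdc, Xrcc6 and Xrcc4, beside 31.6% of all probes, and 1 adjusted, Xrcc4, beside 11.3%. Xrcc4 was at 0.65, 0.53 and 0.48 in EDRL, below all ED arrays, with a change of −0.40 (95% interval −0.73 to −0.08, limma adjusted p = 0.233). Prkdc was at 0.19, 0.18 and 0.13, also below all ED arrays, with a change of −0.34 (limma adjusted p = 0.352). The others lay between −0.25 and 0.08, and the median of all probes was −0.09. In EDRL against EDRE, limma called 0 of 7 members beside 11.2% of all probes, with 3 at an unadjusted p under 0.05, Prkdc (−0.56), Dclre1c (1.11) and Xrcc5 (−0.53), beside 28.6%. Against the bright EDRE array alone, on a shared slide, Dclre1c differed by −0.06, the opposite sign, and Xrcc5 by −0.22, with no test. Prkdc rests on that array alone in EDRE. The t-test of the methods gave 0 adjusted, beside 0.0167%. Without adjustment Prkdc and Xrcc6 passed, beside 15.5%, but decide nothing, since each had 1 usable EDRE array and its spread came from EDRL alone. Nhej1 was at 2.94, 2.83 and 3.05 in EDRL and at 2.48 and 0.48 in EDRE, a change of 1.46 (95% interval −0.01 to 2.93, limma adjusted p = 0.177). The low EDRE value is that of a dim array, and on the slide shared with the bright EDRE array the difference was 0.46.

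Whether IR changed a member differently in the 2 cell types was tested as an interaction, the change in ED minus the change in ES. At 15 min, 1 of 6 members was called, beside 2.06% of all probes. It was Dclre1c, at −3.17 (SE 0.63, 95% interval −4.53 to −1.81, limma adjusted p = 0.0229), while the other 5 lay between −0.24 and 0.47 and the median of all probes was 0.22. In the same interaction 2 of 8 ES cell markers were called as lower, Pou5f1 (−2.30) and Esrrb (−1.46), and their part in the result was not tested. Without both dim EDRE arrays, where 1 EDRE array remains and its spread is taken from the other groups, the value was −2.0 (limma adjusted p = 0.139). On that same single array, without these and replicate 1 of ESRL, an alternative chosen after seeing the data, it was −2.0 with a limma adjusted p of 0.00401. With slide as a random block it was −2.01 and not called, and neither was any other probe. In fits that left 1 array out it ranged from −3.75 to −2.88, with limma adjusted p from 0.000191 to 0.0646, and was called in 8 of 18. The call was lost without any 1 array of ES or ESRE, without replicate 2 or 3 of ED and without replicate 2 or 3 of EDRE. At 4 h, limma called 0 of 6, beside 1.17% of all probes, with 3 at an unadjusted p under 0.05 (Dclre1c, Prkdc and Xrcc6), beside 15.3%, and no t-test was run. Dclre1c was −1.64 (95% interval −2.99 to −0.28, limma adjusted p = 0.236), and the other 5 lay between −0.61 and −0.33.

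The values of Dclre1c came from 1 of its 3 probes. The brightest probe was well above background on all 18 arrays. The next brightest was at −5.64, −5.91 and −5.22 in ES, at −5.53, −5.24 and −8.56 in ESRE and at −5.21, −6.29 and −5.54 in ESRL. These overlap, with changes of −0.85 in ESRE and −0.09 in ESRL (limma adjusted p of 0.870 and 0.963). It was well above background on 15 of 18 arrays, but not on replicate 3 of ESRE, which gave −8.56, or on both dim EDRE arrays. The remaining probe changed by −0.67 in ESRE and 0.22 in ESRL (limma adjusted p of 0.783 and 0.826) and was well above background on 14, which leaves out the same 3 and replicate 1 of ESRL. The 3 probes are annotated to different RefSeq transcripts of the gene. Which transcripts each probe measures was not tested.

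**Figure D4:**
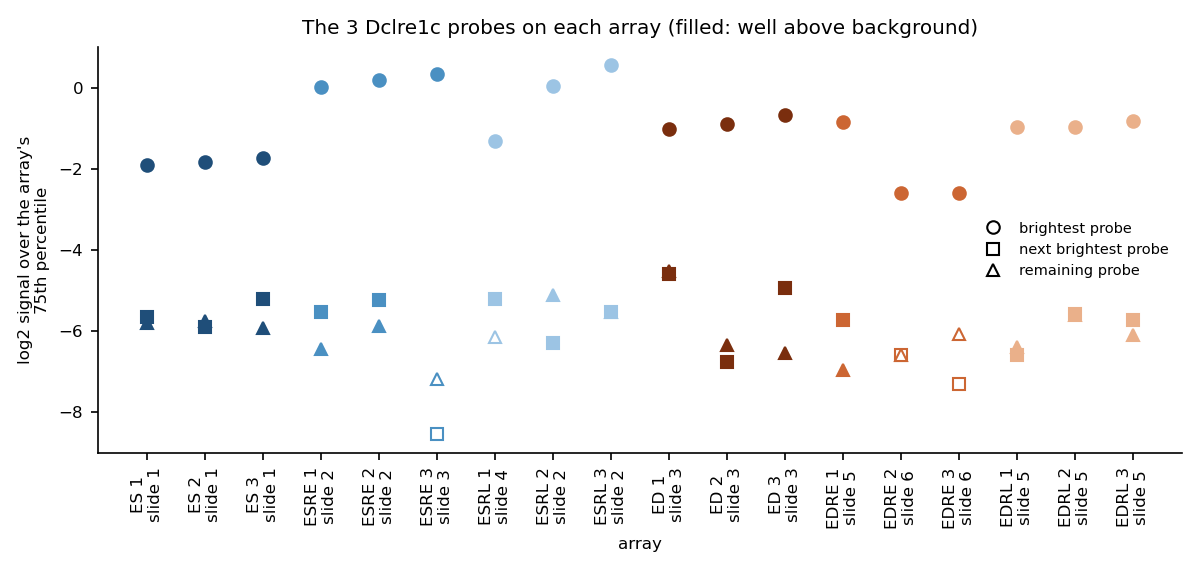
Log2 signal relative to the 75th percentile (vertical axis) of the 3 Dclre1c probes on each array with its slide (horizontal axis), filled where well above background. The brightest probe is at −1.90 to −1.71 in ES and 0.04 to 0.35 in ESRE, and at −2.60 and −2.59 on both dim EDRE arrays, while the other probes lie below −4.5.

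Only Dclre1c had a value on every array, so likeness was measured for it alone. Among 8077 genes, the pattern over 18 arrays nearest to it was that of Pradc1, with a root mean square difference of 0.223 on the log2 scale, followed by Med23 with 0.355. The standard deviation of Dclre1c itself was 0.92. Both dim EDRE arrays and the ESRL array of another day entered the pattern. Pradc1 was at −1.92 (SD 0.95) in EDRE and at −0.31 (SD 0.68) in ESRL. Only genes with a value on all 18 arrays were compared. Of the brightest 30% of spots, 71.0% and 67.7% were outliers on the dim arrays, so that many bright genes were left out. The part of these arrays in the likeness was not tested.

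Under the same scaling, other genes of break repair also moved in both directions between ES and ED, where 51.9% of all probes were called. Of 7 accessory factors tested, 2 were higher in ED and 1 lower: Paxx, a paralogue of Xrcc4 (1.38), Aptx, which removes AMP from failed ligations (0.80), and Tdp1, which removes adducts from 3′ ends (−0.59). Cyren, at 0.87, was not called. Of 9 genes of alternative end joining, which joins ends through short homologies, 2 were higher and 5 lower. Among these were Ercc1 (1.38) and Rbbp8 (0.76), and Parp1, the break sensor (−2.15), Lig3, a ligase (−1.09), Ercc4 (−0.90) and Xrcc1 (−0.78). Of 11 genes of end protection and pathway choice, 0 were higher and 4 lower. These were Mad2l2 (−2.11) and Shld1 (−2.05) of the shieldin complex, Rif1 (−1.45), which acts with 53BP1, and Ctc1 (−1.14). With slide as a random block, 0, 2 (Ercc1 and Parp1) and 2 (Mad2l2 and Rif1) of these lists were called, beside 21.2% of all probes. The medians were 0.31, −0.62 and −0.31 for these lists, and −0.19 over all probes. After IR, 0 of these genes were called in ESRE or ESRL against ES or in EDRL against ED, beside 0.649%, 8.89% and 2.39% of all probes. Ercc4 (0.47) and Rnf168 (1.12) were called as higher in EDRE, beside 7.42% of all probes, and 2 of the 3 EDRE arrays are the dim ones. Neither was called with slide as a random block, beside 0.00407% of all probes. Between the times, Tdp2 (−0.77) and H2ax (−0.59) were lower in ESRL than in ESRE, and in EDRL against EDRE Paxx (1.34) was higher and Aptx (−0.74) and Rnf168 (−1.02) lower, beside 5.99% and 11.2% of all probes. Of these 5 calls, those of Tdp2 and Aptx held with slide as a random block, beside 6.74% and 4.52% of all probes.

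**Figure D5:**
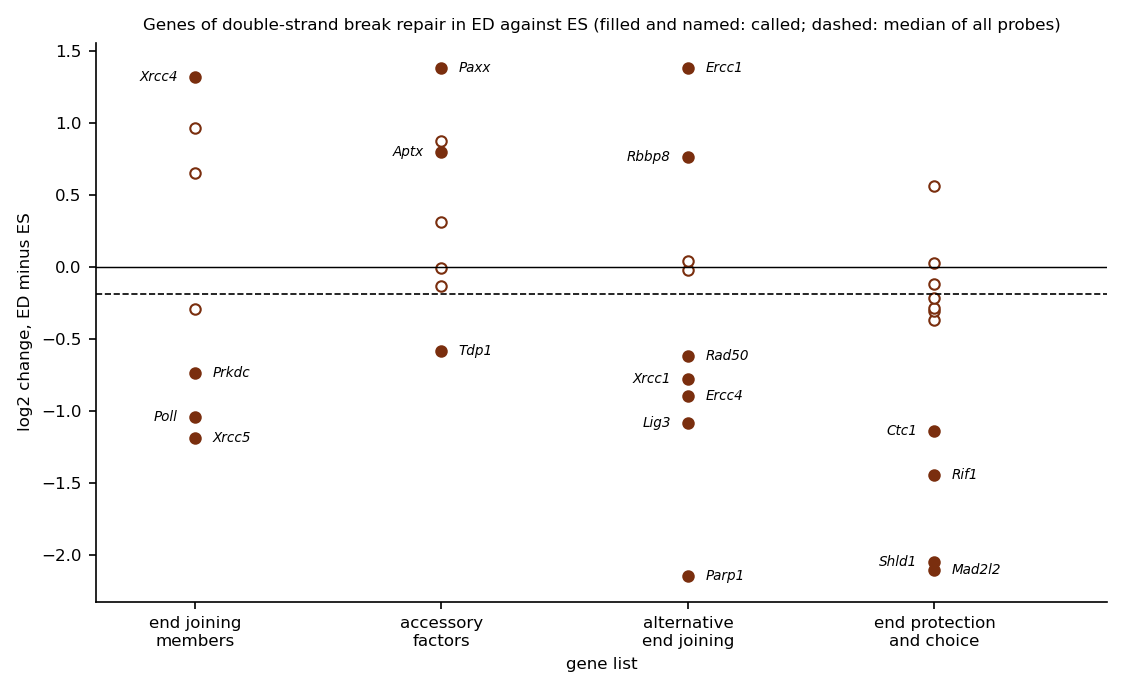
Log2 change in ED against ES (vertical axis) of the end joining genes and 3 further lists of break repair (horizontal axis), with 1 point per gene tested, filled and named where called, and a dashed line at the median of all probes, −0.19. Called genes lie on both sides of 0 in 3 of the lists and only below it among the genes of end protection and choice.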

How the data were processed

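The authors deposited, per array, background-subtracted intensity values from Agilent Feature Extraction (version 9.1 per the labels), with no normalization between arrays. A series matrix of log2 values, 30133 probes long and also deposited, was used as an alternative and, as tested on the files, is the log2 signal, raised to at least 5, minus about the median of the array. Its column medians were 0.57 to 0.72. Here 37831 spots were kept after 1417 control and 200 negative control spots were left out, outlier spots were set missing, and log2 values were taken relative to the 75th percentile of each array. On each array, 49.5% to 86.1% of the probes were well above background, and a probe was tested where it was so on all 3 arrays of at least 1 group compared. A linear model of 6 group means was fitted with limma 3.58.1 in R 4.3.3, and the procedure was tested on simulated data. All 9 members are named, each by its brightest probe. Genes of the 3 further repair lists are named where called or among the 3 largest changes, up to 6 a list. The members and lists were chosen with earlier results of these data known. Alternatives changed background correction, scaling, filter, outliers, slide, replicate block, weights, arrays, test, fold limit and probe, and 2 were added after the data were seen: leaving out 3 arrays together, and a second set of array weights.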

Additional observations from a re-analysis of the deposited data

Results flagged for a closer look

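For Dclre1c at 15 min after IR, limma called the interaction with cell type. The change in ED cells minus the change in ES cells was −3.17 (adjusted p = 0.0229). The brightest probe was higher in all 3 ESRE arrays than in all 3 ES arrays, and lower than in ED on both dim EDRE arrays but not on the bright one. Without both dim arrays, 1 EDRE array remains, and its spread is taken from the other groups. The value was then −2.0 (limma adjusted p = 0.139), or 0.00401 as adjusted p when replicate 1 of ESRL was left out as well. The call was lost with slide as a random block, at −2.01, where 0 of 28103 probes were called, and held in 8 of 18 fits that left 1 array out. The ES arrays were on a slide of their own. The other 2 probes of Dclre1c gave −0.26 and −0.07 in the same interaction (limma adjusted p of 0.923 and 0.966). Neither was well above background on either dim EDRE array.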

How the results depend on the processing

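For ED against ES, Xrcc5, Prkdc, Poll and Xrcc4 kept their signs in 36 of 36 alternatives (−1.34 to −0.54, −0.84 to −0.09, −1.15 to −0.39 and 1.17 to 1.97), called in 33, 33, 33 and 35. Of the 36, 18 left out 1 array, which moves only changes of its group. All but 2 t-tests, unadjusted and adjusted, use adjusted p in limma. Xrcc6 kept its sign in 34. The count of 4 became 5 with normexp (39.4% of all probes called), with quantile normalization (54.4%) and without both dim EDRE arrays (57.6%), with Dclre1c added, and 5 with the 75th percentile of probes above background on all arrays (53%), with Xrcc6 added. It was 6, both added, with only the groups compared fitted (64.3%) and with the t-test of the methods, unadjusted (64.6%) or adjusted (59.8%). It became 3 with a log2 change over 1 also required (Xrcc5, Xrcc4 and Poll), 3 with each array set to its median (Xrcc4, Dclre1c and Polm, all higher in ED), and 4 in the authors' matrix (Xrcc4, Nhej1, Dclre1c and Polm, all higher), where Xrcc5 was −0.54, Prkdc −0.09 and Poll −0.39 and none of these was called. With slide as a random block the counts were 0 in ED against ES, 0 in ESRL against ES and 0 for the interaction at 15 min.

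In ESRE against ES, 1 member, Dclre1c, was called in place of 0 with normexp (0.351% of all probes), median scaling (0.764%), quantile normalization (0.835%), only the groups compared fitted (5.31%) and the t-test of the methods after adjustment (1.98%), and 2 with that test unadjusted (23.5%). In ESRL against ES the count of 1 became 0 with normexp, the 75th percentile of probes above background on all arrays, no filter, the strict filter, only the groups compared fitted, the adjusted t-test and the next brightest Dclre1c probe, which turned the change to −0.0897 (limma adjusted p = 0.963, where p over all alternatives ranged from 6.32e-07 to 1.00). With that probe the interaction at 15 min had 0, beside 2.06% of all probes. With outlier spots kept, EDRE against ED had 1 (Xrcc5, beside 12.3% of all probes) and EDRL against EDRE 3 (Xrcc5, Xrcc6 and Nhej1, beside 22.0%), and in the authors' matrix these had 1 (Xrcc5, 18.5%) and 1 (Xrcc6, 19.7%). EDRL against ED had 1 (Xrcc4) with only the groups compared fitted (18.4%). By t-test it had 3 unadjusted (31.6%) and 1 adjusted (11.3%), and EDRL against EDRE 2 unadjusted (15.5%), void: 1 usable EDRE array each.

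Array weights raised most counts, and they depended on the probes they were estimated from. In the planned run, over 5839 probes with complete values, the estimate did not converge and weighted replicate 3 of EDRE, a dim array, by 153.5 and the bright replicate 1 by 0.027. The counts were 7 in ED against ES, 1 in ESRE, 3 in ESRL, 1 in EDRE, 3 in EDRL, 1 in ESRL against ESRE, 2 in EDRL against EDRE and 2 for the interaction at 4 h. In the same order, 69.8%, 16.3%, 26.6%, 53.5%, 32.7%, 18.5%, 60.2% and 19.8% of all probes were called. After these weights were seen, 3 more sets of probes were tried, so that 4 were tried in all and 3 did not converge. The 1 that did, over 29439 probes with missing spots allowed and with weights from 0.055 to 3.90, was fitted as an alternative chosen after seeing the data. Its counts in the same order were 7, 1, 3, 1, 3, 2, 2 and 2, beside 70.8%, 13%, 35.9%, 46.4%, 27.4%, 23.8%, 50% and 27.2% of all probes. No calls were computed for the other sets.

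Without both dim EDRE arrays, where the spread of the 1 EDRE array left is that of the other groups, ESRE against ES had 1 member (Dclre1c, beside 2.24% of all probes) and the interaction at 15 min 0 (1.11%). Without these and the ESRL array of another day, an alternative chosen after seeing the data, there were 7 in ED against ES (61.7% of all probes), 1 in ESRE (5.49%), and 1 each for the interactions at 15 min (4.43%) and 4 h (6.6%), all Dclre1c after IR. Leaving out 1 array at a time gave 4 to 5 in ED against ES, 0 to 1 in ESRE, 0 to 1 in ESRL, 0 to 2 in EDRE, 0 to 0 in EDRL, 0 to 2 in ESRL against ESRE, 0 to 3 in EDRL against EDRE, and 0 to 1 for each interaction. The shares of all probes called reached 56.7%, 1.81%, 19.8%, 45.8%, 5%, 17%, 48.7%, 34.9% and 5.54% in this order. ESRL had 0 without any 1 array of ES, ESRE, ED or EDRL or replicate 3 of ESRL, and Poll was its 1 call without replicate 2 of ESRL. EDRE had 1 (Dclre1c) without replicate 1 of ESRL and 2 (Xrcc5, Dclre1c) without replicate 1 of EDRE. ESRL against ESRE had 2 (Prkdc, Poll), EDRL against EDRE 1 (Prkdc) and the interaction at 4 h 1 (Prkdc) without replicate 2 of ESRL, and EDRL against EDRE had 3 (Xrcc5, Nhej1, Dclre1c) without replicate 1 of EDRE.

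With a replicate block, ED against ES kept a count of 4, ESRL against ES had 0 (Dclre1c, limma adjusted p = 0.0612) and the interaction at 15 min had 1. Residuals of the 45 pairs of arrays with the same replicate number had r from −0.43 to 0.30 across probes, over 0.1 in 9, and the labels do not say that the numbers pair cultures.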
